A study of Schizosaccharomyces pombe with 8 samples.

Results

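Kinetochore and spindle checkpoint transcripts of the fission yeast Schizosaccharomyces pombe were examined in cells with and without zfs1. The genes were found by symbol in the probe table and the current gene table: every name that starts with mis, fta, sim, cnp, dad, mad or bub followed by a digit, plus a fixed set of further names such as ndc80, nuf2, ask1, ark1 and sgo2. This gave 44 genes of the 2899 that have a single name, each with 1 probe set, and 43 could be tested. The remaining one, dad5, had a value on only 1 of the 8 arrays. Signals played no part in the name rule. The genes cnp20, dad4, mis19, mis20 and spc19, which the rule also names, are not analysed here.

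The study's title describes the zfs1 product as an mRNA-binding protein that lowers transcript stability; it carries tandem CCCH zinc fingers. Total RNA was taken from 4 cultures of a zfs1-deficient strain, titled deltaZFS, and from 4 cultures of a wild-type strain. The medium was Edinburgh minimal medium at 30 °C with 50 mg/l each of adenine, histidine, leucine, lysine and uracil. Cells were collected at an absorbance of 1.0, and each RNA was hybridised to 1 Affymetrix array after 3′ amplification. The labels do not say how zfs1 was removed or give the strains' other alleles, and they name a nematode array although the probe sets are paired with fission yeast genes.

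The kinetochore is the protein assembly through which a chromosome holds spindle microtubules. The histone variant CENP-A marks the centromere, an inner layer (in fission yeast the Mis6-Sim4 complex) binds it, an outer layer of the Mis12, Spc7 and Ndc80 complexes grips the microtubule, and the ring-forming DASH complex follows the microtubule end. The spindle checkpoint proteins Mad and Bub, loaded on Spc7, block the anaphase-promoting complex until attachment is complete, and the Aurora kinase of the passenger complex releases faulty attachments. In RNA from whole cultures, fewer cells of a cell cycle stage and less RNA per cell cannot be told apart.

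Signals are log2 values, each difference is the zfs1-deficient mean minus the wild-type mean, and SE is that of the limma fit across all probe sets. The labels were borne out by zfs1 itself, whose signal was 4.14 ± 0.45 in zfs1-deficient and 10.51 ± 0.10 in wild-type cultures (SD, n = 4 each; adjusted p = 5.23e-07). It lay at background on all 4 zfs1-deficient arrays, so it was at least 31.8-fold lower there. Replicate 4 of both strains stood apart from replicates 1 to 3. Its deviations from the strain mean correlated at 0.70 between the strains, against 0.26 to 0.37 for the other shared numbers and -0.54 to 0.41 for unlike ones. Calls of these genes and of the gene lists that change when the replicate number is a block, or without both replicate 4 cultures, are therefore given with that value. Most of these probe sets were dim: 28 of the 43 lay in the dimmest 25% of the table. Even so, 41 lay above the brightest reporter control, the measure of background, on every array.

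Few of these genes differed between the strains. By limma with Benjamini-Hochberg adjustment over 4969 probe sets, 2 of the 43 rose without zfs1, ask1 and fta5, and 0 fell. That is 4.65% of the genes, against 5.78% of all probe sets tested, of which 3.56% rose and 2.21% fell. Before adjustment, 5 higher and 3 lower genes had p under 0.05. The share of all probe sets at that unadjusted level was not counted, here or for the groups and lists below. A block on the replicate number called 4 genes higher and 3 lower, 16.3% of them against 24.2% of all probe sets, of which 11.3% were higher and 12.8% lower. The genes that the block added were ark1 and bub3, higher, and cnp3, fta7 and mis3, lower. The remaining 36 genes, called in neither fit, differed by -0.35 to 0.38. The median difference of the 43 was -0.05, against -0.01 over all tested probe sets, and 62.8% of the genes had a negative difference, against 52.6% of all probe sets. For 32 of the 43 the difference was smaller than the larger of the standard deviations within a strain.

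**Figure D1:**
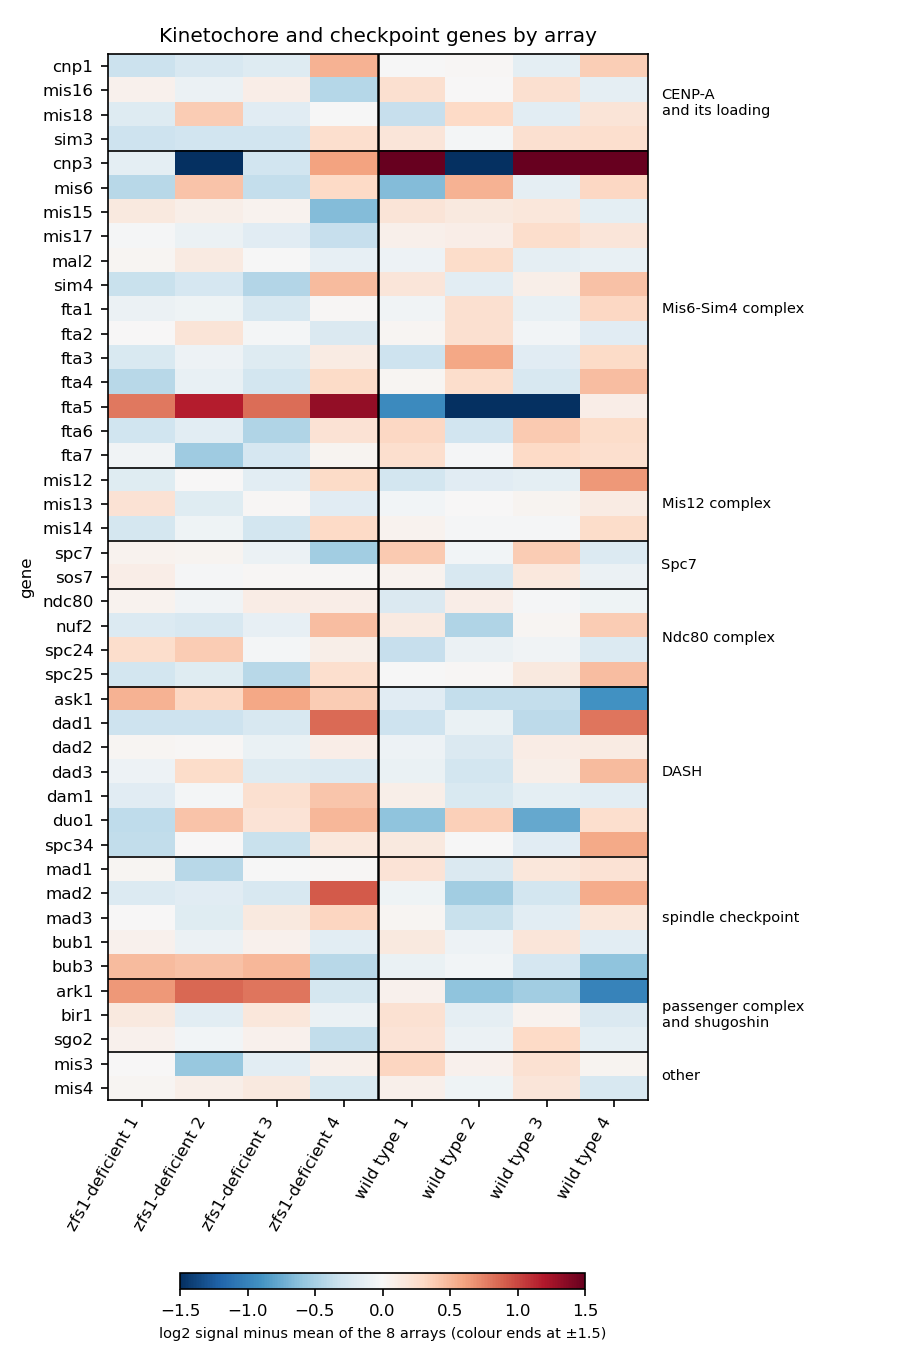
Log2 signal of each of the 43 genes (rows, grouped by role) on each of the 8 arrays (columns, zfs1-deficient left of the line), shown as the deviation from the gene's mean over the arrays. The rows of fta5 and ask1 are higher on all 4 zfs1-deficient arrays than on any wild-type array, whereas dad1 and mad2 are highest in replicate 4 of both strains.

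The gene with the clearest change among structural kinetochore genes was ask1 (SPBC27.02C), a subunit of the DASH complex. Its signal was 9.33, 9.12, 9.39 and 9.19 in zfs1-deficient replicates 1 to 4, against 8.64, 8.45, 8.45 and 7.90 in wild-type replicates 1 to 4. The arrays of the strains did not overlap, and wild-type replicate 4 was the lowest of all. The difference was 0.90 ± 0.16 (SE, n = 4 per strain, adjusted p = 0.0133), or 1.86-fold. As the arrays did not overlap, any pairing of them gives 4 of 4 higher. With the block the adjusted p was 0.00203. Leaving out 1 array kept the call in 6 of 8 cases, and it was missed without zfs1-deficient replicate 1 (adjusted p = 0.0515) or replicate 3 (adjusted p = 0.0528). meu25, which lies beside it in the gene table, differed by 0.23 ± 0.23 (SE).

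No other DASH gene passed the test. The complex was represented by 8 genes, of which 7 could be tested. The share called, 14.3% against 5.78% of all probe sets, thus rests on ask1 alone. Of the 7, 4 had a positive sign beside a median difference of 0.03 (42.9% were negative, against 52.6% of all probe sets). duo1, another subunit, differed by 0.38 ± 0.33 (SE), with signals of 5.25, 6.06, 5.83 and 6.13 in zfs1-deficient cultures and 5.02, 5.99, 4.86 and 5.88 in wild type. These lay close to the reporter controls, and 1 zfs1-deficient array did not exceed the brightest of them. The brightest reporter control had 4.93 to 5.75 on zfs1-deficient arrays and 4.65 to 5.11 on wild-type arrays, and its part in the duo1 value was not tested. dam1, which encodes the subunit that Aurora kinase regulates in budding yeast, differed by 0.22, and spc34 differed by -0.27. dad2 (0.03) and dad3 (-0.10) lay close to 0, and dad5 had a signal of 2.89 on zfs1-deficient replicate 4 and no value elsewhere.

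dad1, a further DASH subunit, varied more by culture than by strain. Its signal was 9.30, 9.30, 9.37 and 10.45 in zfs1-deficient replicates 1 to 4, and 9.29, 9.51, 9.21 and 10.41 in wild-type replicates 1 to 4. Both replicate 4 cultures were thus more than 1 log2 unit above the mean of their own strain's other cultures (1.13 in zfs1-deficient, 1.08 in wild type). The interval of its strain difference ran from -0.73 to 0.73, around a difference of 0.00. The SE was 0.08 with the block, against 0.32 without it.

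**Figure D2:**
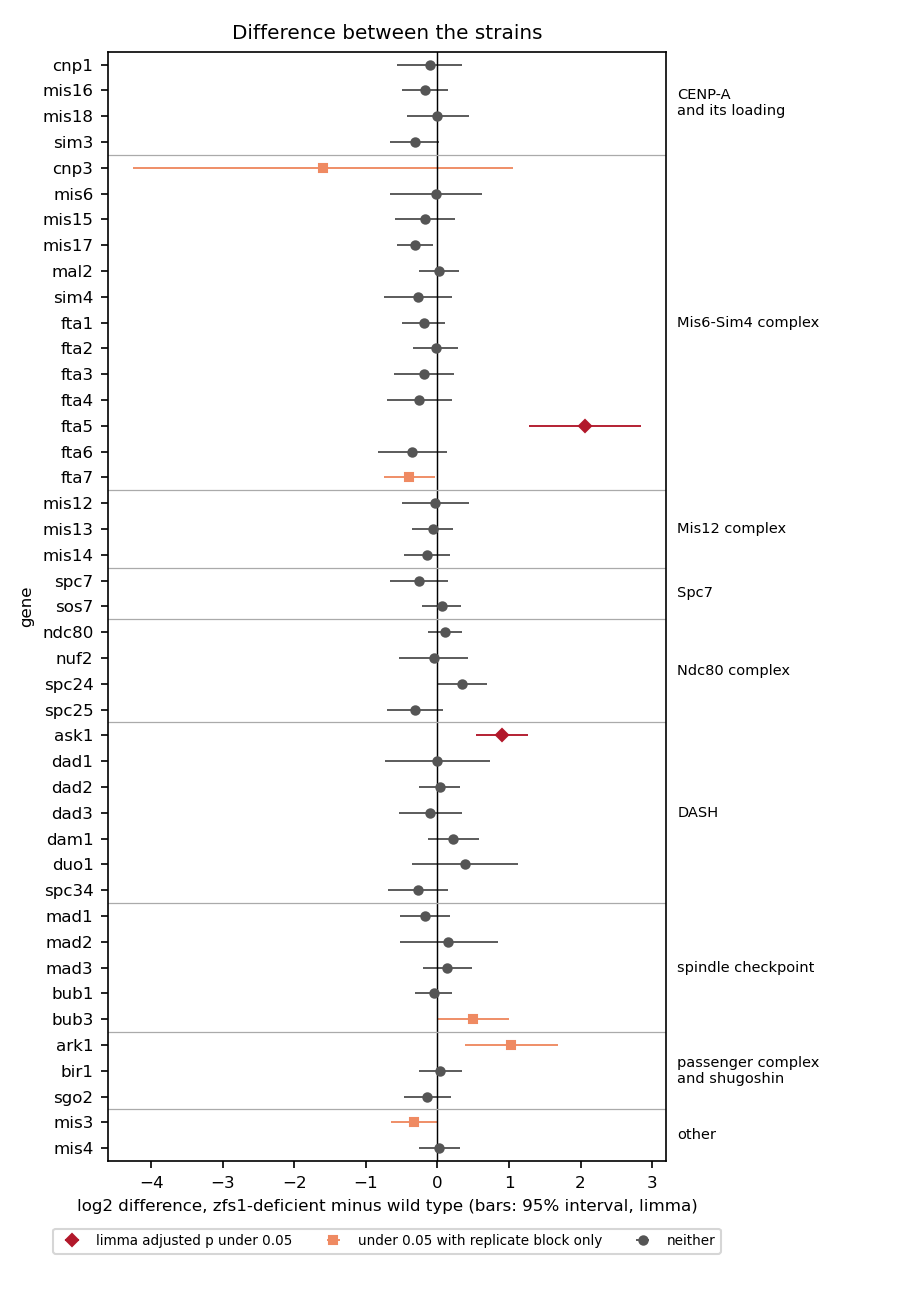
Difference in log2 signal between the strains for each of the 43 genes, zfs1-deficient minus wild type, with 95% intervals from limma. fta5 (2.06) and ask1 (0.90) passed the test, 5 genes passed only when the replicate number was a block, and cnp3 has the widest interval (-4.25 to 1.06).

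The Aurora kinase gene ark1 (SPCC320.13C) had the second largest positive difference, but its call depended on how the replicates were treated. Its signal was 8.24, 8.45, 8.39 and 7.33 in zfs1-deficient cultures, against 7.65, 6.99, 7.07 and 6.59 in wild type. Replicate 4 was the lowest of both strains, and the strains overlapped only in that zfs1-deficient replicate 4 lay below wild-type replicate 1. The difference was 1.03 ± 0.29 (SE, n = 4 per strain; adjusted p = 0.0764), or 2.04-fold. It was positive in 4 of 4 pairs, by 0.59 to 1.46. The block gave an adjusted p of 0.00472, and without both replicate 4 cultures the difference was 1.13 (adjusted p = 0.0110). Of the single arrays, leaving out zfs1-deficient replicate 4 also gave a call (1.29, adjusted p = 0.0165). The neighbouring gene atp23 differed by -0.22 ± 0.09 (SE; adjusted p = 0.207).

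The partners of Ark1 lay nearer to 0. bir1, the survivin-like subunit of the passenger complex, differed by 0.04 ± 0.13 (SE), with an interval of -0.26 to 0.34. Among the partners outside the name rule, pic1 (the INCENP-like subunit) differed by -0.06 ± 0.16 and nbl1 (the borealin-like subunit) by -0.18 ± 0.36. sgo2, the shugoshin that brings the complex to centromeres, differed by -0.14 ± 0.15, and the difference between ark1 and these genes was not itself tested.

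Of the 5 spindle checkpoint genes measured, 0 passed limma without the block, against 5.78% of all probe sets. With the block 1 passed, bub3 (20.0%, against 24.2%), and bub3 alone was at an unadjusted p under 0.05. bub3 (SPAC23H3.08C), a WD-repeat protein that docks Bub1 and Mad3 on Spc7, had signals of 9.09, 9.05, 9.11 and 8.20 in zfs1-deficient cultures and 8.52, 8.58, 8.37 and 8.01 in wild type. As with ark1, replicate 4 was the lowest of both strains. The difference was 0.50 ± 0.22 (SE, n = 4 per strain; adjusted p = 0.241), or 1.41-fold, and it was positive in 4 of 4 pairs. It passed with the block (adjusted p = 0.0142) and without both replicate 4 cultures (0.60, adjusted p = 0.00933), and also without zfs1-deficient replicate 4 alone (0.72, adjusted p = 0.0261). The genes on its sides, mrp2 and gly1, differed by 0.23 ± 0.11 and 0.00 ± 0.05 (SE). mrp2 was called higher with the block, as bub3 was (adjusted p = 0.0282, against 0.295 without it).

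The other checkpoint genes lay closer to 0. bub1, the kinase that marks centromeric chromatin, differed by -0.05 ± 0.11 (SE; interval -0.31 to 0.20), the narrowest of the 5. mad1, the anchor of Mad2 at unattached kinetochores, differed by -0.18 and mad3, a Bub1-related subunit of the checkpoint effector, by 0.14. mad2, which encodes the inhibitor of the anaphase activator Slp1, had signals of 8.36, 8.39, 8.32 and 9.48 in zfs1-deficient cultures and 8.49, 8.04, 8.28 and 9.12 in wild type. Replicate 4 was again highest in both strains, and the strain difference of 0.15 ± 0.30 left an interval of -0.53 to 0.84. Upstream and downstream of these genes, mph1 (the checkpoint kinase) differed by 0.05 ± 0.17 and slp1 by 0.25 ± 0.19.

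**Figure D3:**
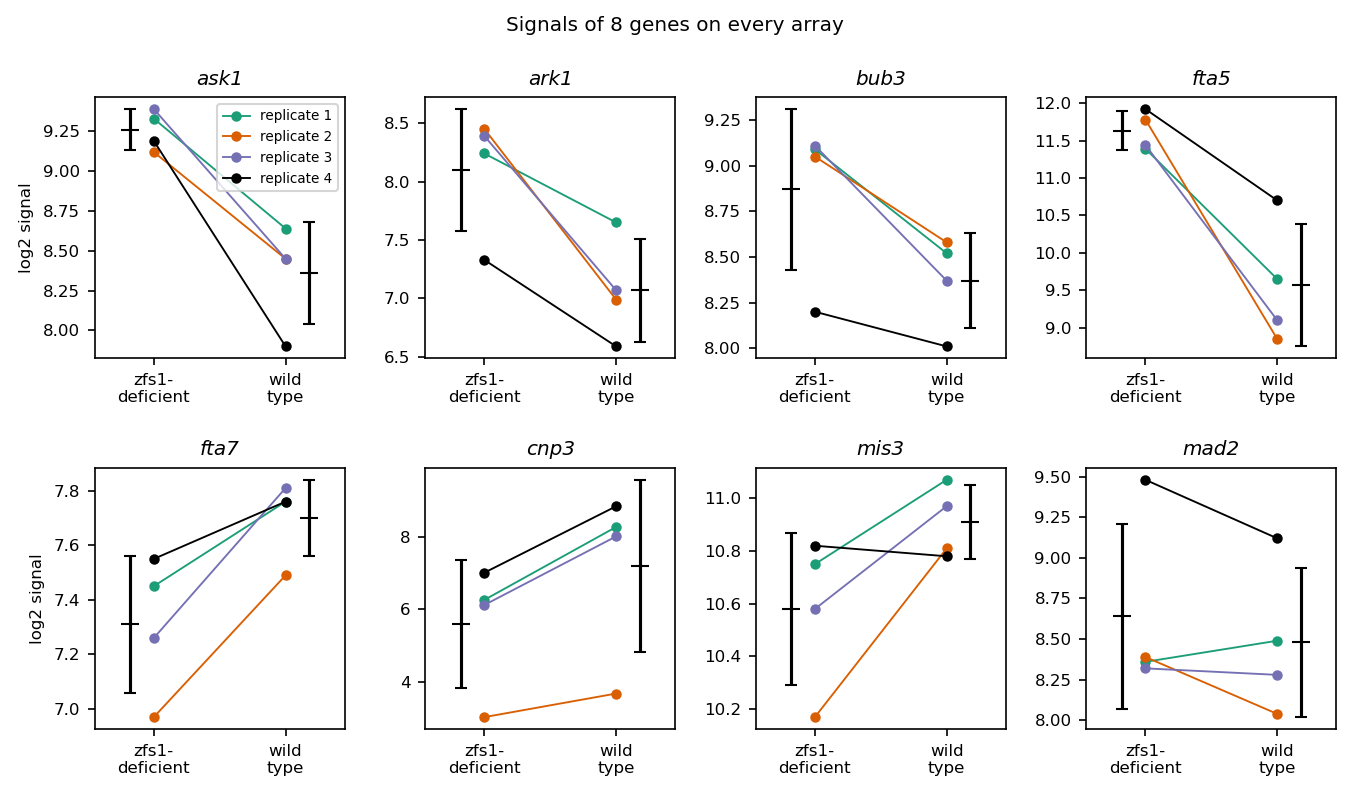
Log2 signals of 8 genes on every array, with numbered cultures of zfs1-deficient (left) and wild type (right) joined by lines and means ± SD (n = 4) beside them; each panel has its own axis. Every line of ask1, ark1, bub3 and fta5 is higher at its zfs1-deficient end, and replicate 4 is lowest in both strains for ark1 and bub3 and highest in both for mad2.

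The inner layer held the largest difference under the name fta5, which needs a separate account. The probe table gives that symbol to SPAC1F8.06, named for a protein found with the Sim4 complex, but the current gene table calls it pfl8, a flocculin of the cell surface. Its signal was 11.39, 11.78, 11.44 and 11.92 in zfs1-deficient cultures, against 9.65, 8.85, 9.10 and 10.70 in wild type. The strains did not overlap, and the difference was 2.06 ± 0.35 (SE, n = 4 per strain; adjusted p = 0.0107), or 4.17-fold. Leaving out any 1 of the 8 arrays kept the call. isp3 (SPAC1F8.05), a spore wall gene that lies beside it in the gene table, had 5.23 in zfs1-deficient and 2.77 in wild-type cultures (difference 2.46 ± 0.62, adjusted p = 0.0498), mostly at background. Without fta5, 1 of the 42 remaining genes rose, ask1, and 0 fell (2.38%, against 5.78% of all probe sets).

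The 12 other genes grouped with the Mis6-Sim4 complex ranged from -1.60 to 0.02, with a median of -0.23. The lower end is cnp3, the CENP-C gene, and apart from it the lowest was fta7 (-0.40). Of the 12, 11 had a negative sign (91.7%, against 52.6% of all probe sets). Of these 12, 0 passed limma without the block, against 5.78% of all probe sets, and 2, mis17 and fta7, were lower at an unadjusted p under 0.05. With the block 2 passed (16.7%, against 24.2% of all probe sets), fta7 and cnp3. These counts are a description of genes measured on the same arrays.

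fta7 (SPCC1235.07), a subunit of this complex, had signals of 7.45, 6.97, 7.26 and 7.55 in zfs1-deficient cultures and 7.76, 7.49, 7.81 and 7.76 in wild type. Only zfs1-deficient replicate 4 reached the lowest wild-type value. The difference was -0.40 ± 0.16 (SE, n = 4 per strain; adjusted p = 0.199), negative in 4 of 4 pairs, and the adjusted p was 0.0464 with the block. Without both replicate 4 cultures the difference was -0.46 (adjusted p = 0.117), not a call. The genes beside fta7 in the gene table had positive differences, with get2 at 0.32 ± 0.08 (adjusted p = 0.0491) and pdh1 at 0.48 ± 0.16 (adjusted p = 0.131, and 0.00364 with the block).

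mis17 (SPBC21.01) was the 1 gene of all 43 whose zfs1-deficient arrays all lay below the wild-type ones. It had 8.44, 8.37, 8.29 and 8.12 in zfs1-deficient cultures, against 8.54, 8.56, 8.72 and 8.64 in wild type. The difference was -0.31 ± 0.11 (SE; adjusted p = 0.149, and 0.0621 with the block). Such separation was found downward in 2.33% of the genes against 7.71% of all probe sets, and upward, for fta5, ask1 and spc24, in 6.98% against 7.83%.

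cnp3 (SPBC1861.01C), which encodes the CENP-C protein that links CENP-A chromatin to the outer kinetochore, had an unstable probe set. Its signal was 6.26, 3.03, 6.12 and 7.01 in zfs1-deficient cultures, against 8.27, 3.68, 8.01 and 8.84 in wild type. In both strains replicate 2 did not exceed the brightest reporter control, while the other arrays did. The difference was -1.60 ± 1.18 (SE, n = 4 per strain; adjusted p = 0.495), and it was negative in 4 of 4 pairs. With the block the adjusted p was 0.00404, and with an array left out the difference ran from -2.77 to -0.74 with no call. Without both replicate 4 cultures the difference was -1.52 (adjusted p = 0.473), not a call. Its neighbours mrpl44 and abp2 had differences of -0.31 ± 0.29 and -0.52 ± 0.25 (SE), called in neither fit.

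The other subunits of the complex lay between -0.35 and 0.02. mis6 (the CENP-I type subunit) differed by -0.02 ± 0.29, sim4 (CENP-K) by -0.27 ± 0.21, fta3 (CENP-H) by -0.19 ± 0.19, fta1 (CENP-L) by -0.19 ± 0.13 and mis15 (CENP-N) by -0.17 ± 0.19 (SE). mal2 (CENP-O) differed by 0.02 ± 0.12 and fta2 (CENP-P) by -0.02 ± 0.14. fta4 (-0.26) and fta6 (-0.35), further subunits, lay in the same range, and none of these 9 was called in either fit. mis6 varied more between cultures than between strains: it was 7.39, 8.24, 7.45 and 8.11 in zfs1-deficient and 7.16, 8.33, 7.67 and 8.12 in wild type, low in replicates 1 and 3 of both.

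Genes of CENP-A and its loading, 4 in all, gave 0 calls with or without the block and 0 at an unadjusted p under 0.05 in limma. Over all probe sets 5.78% were called without the block and 24.2% with it, and 4 genes are too few to read 0 calls as a result. cnp1, which encodes CENP-A itself, differed by -0.11 ± 0.20 (SE; interval -0.57 to 0.35). mis16 (a histone-binding protein of the loading complex) differed by -0.17 and mis18 (its partner) by 0.00. The largest in size was sim3, a histone chaperone that carries CENP-A, with 8.08, 8.11, 8.11 and 8.64 in zfs1-deficient cultures against 8.57, 8.36, 8.63 and 8.65 in wild type. Its difference was -0.32 ± 0.15 (adjusted p = 0.275), and zfs1-deficient replicate 4 alone reached the wild-type range. Without both replicate 4 cultures it was -0.42 (adjusted p = 0.0461), and with the block the adjusted p was 0.0754. scm3 (the CENP-A assembly factor) and ams2 (a GATA factor needed for CENP-A loading), outside the name rule, differed by 0.13 ± 0.14 and 0.25 ± 0.15.

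The outer layer gave no call in either fit. Its groups held only 2 to 4 genes each, and over all probe sets 5.78% were called without the block and 24.2% with it. Of the Mis12 complex, mis12 differed by -0.03 ± 0.21, mis13 by -0.06 ± 0.13 and mis14 by -0.15 ± 0.14 (SE). mis14 had 9.07, 9.27, 9.06 and 9.63 in zfs1-deficient cultures and 9.38, 9.32, 9.32 and 9.61 in wild type, so that the strains overlapped. spc7, the scaffold for Bub proteins, differed by -0.26 ± 0.18, with 8.93, 8.91, 8.78 and 8.35 in zfs1-deficient cultures and 9.27, 8.83, 9.25 and 8.67 in wild type. Replicate 4 was the lowest in both strains. sos7, the partner of Spc7, differed by 0.06 ± 0.12.

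The 4 Ndc80 complex genes did not share a direction. ndc80 (0.10 ± 0.11, interval -0.13 to 0.34) and nuf2 (-0.05 ± 0.22), which encode the microtubule-binding arm, lay near 0. spc24 and spc25 encode the other pair of subunits of the complex, and they had opposite signs. spc24 had 7.22, 7.33, 6.92 and 7.04 in zfs1-deficient cultures against 6.61, 6.86, 6.90 and 6.75 in wild type, a difference of 0.35 ± 0.15 (adjusted p = 0.238). The arrays did not overlap, but zfs1-deficient replicate 3 exceeded wild-type replicate 3 by only 0.01. spc25 differed by -0.31 ± 0.17 (adjusted p = 0.346).

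Besides fta5, the name rule caught 2 genes from outside the kinetochore, mis3 and mis4. mis3 (SPBC25B2.05), a ribosome assembly factor, had 10.75, 10.17, 10.58 and 10.82 in zfs1-deficient cultures and 11.07, 10.81, 10.97 and 10.78 in wild type. The strains overlapped through replicate 4, and the difference was -0.33 ± 0.14 (SE; adjusted p = 0.239, and 0.0497 with the block). Without both replicate 4 cultures the difference was -0.45 (adjusted p = 0.0844), not a call. Of the neighbours of mis3, btb2 differed by -0.32 ± 0.12 (adjusted p = 0.173, and 0.0231 with the block) and mtg1 by -0.15 ± 0.10 (SE), called in neither fit. mis4, the loader of cohesin, differed by 0.02 ± 0.13.

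Many of these genes differed between replicates in the same way in both strains. Replicate 4 was the highest array of both strains for 16 of the 43 genes (37.2%, against 25.3% of all probe sets) and the lowest of both for 9 (20.9%, against 28.4%). The upward ones included cnp3, dad1, mad2, mis12, sim4 and nuf2. cnp3, at background in replicate 2, stood 1.87 above the mean of its strain's other cultures in zfs1-deficient and 2.19 above in wild type. mis12 stood 0.40 above the other cultures in the zfs1-deficient strain and 0.85 above them in wild type, and sim4 stood 0.82 and 0.40 above them. The downward ones included ark1, which was 1.03 below the mean of its strain's other cultures in zfs1-deficient and 0.65 below in wild type, and bub3, at 0.88 and 0.48 below. These are descriptions of 1 culture against 3 in each strain.

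**Figure D4:**
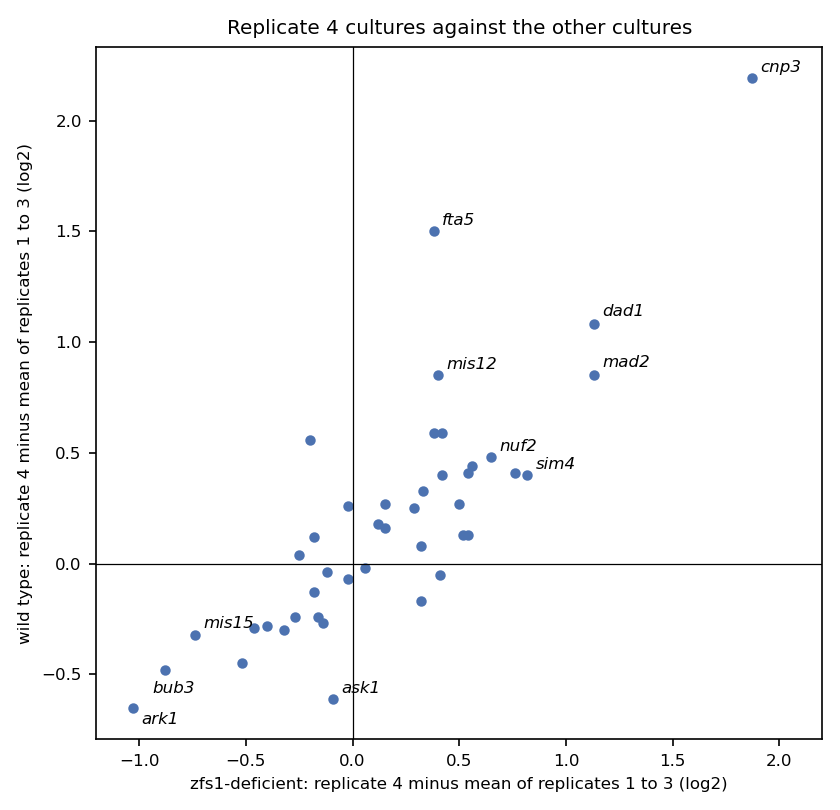
Log2 signal of replicate 4 minus the mean of replicates 1 to 3, in zfs1-deficient (horizontal) and wild-type cultures (vertical), with 1 point for each of the 43 genes. cnp3 lies furthest up and right (1.87, 2.19), dad1 and mad2 lie next in that corner, ark1 and bub3 far down and left, and fta5 is raised mainly in wild-type replicate 4.

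Related genes that the name rule leaves out were followed in a list of 45 measured genes, of which 44 could be tested. It holds monopolin, cohesin, spindle and anaphase-promoting complex genes and other kinetochore, centromere and mitotic regulators. Of these 1 fell and 0 rose in limma (before adjustment, 3 higher and 2 lower genes had p under 0.05), and with the block 3 were higher and 3 lower. That is 2.27% of the list, against 5.78% of all probe sets, and 13.6% with the block, against 24.2%. mde4 (SPBC6B1.04), a monopolin subunit that clamps microtubule sites at the kinetochore, fell to 8.81 ± 0.17 in zfs1-deficient cultures, against 9.32 ± 0.15 in wild type (SD, n = 4 each). The difference was -0.51 ± 0.12 (SE, adjusted p = 0.0460), and leaving out 1 array kept the call in 1 of 8 cases (adjusted p between 0.0254 and 0.128). The adjusted p was 0.00353 with the block and 0.0169 without both replicate 4 cultures. Its partner csm1, listed as pcs1, differed by -0.18 ± 0.32. The genes added by the block were the cohesin subunits rad21 (0.34, adjusted p = 0.0272) and psm1 (0.40, 0.0199) and the anaphase-promoting complex subunit apc10 (0.46, 0.0474), higher, and the cohesin releaser wpl1 (-0.30, 0.0355) and the heterochromatin protein swi6 (-0.31, 0.0279), lower.

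Transcripts that peak at set stages of the cell cycle are given beside the kinetochore genes, many of which are used in mitosis. Of 14 mitotic and septation transcripts 0 passed limma, against 5.78% of all probe sets, and 0 had an unadjusted p under 0.05. Their median difference was 0.18, and 12 had a positive sign (14.3% were negative, against 52.6% of all probe sets). With the block 2 were higher, the forkhead factor sep1 (0.32, adjusted p = 0.0147) and adg2, a cell separation gene (0.26, adjusted p = 0.0449), or 14.3% of the list against 24.2% of all probe sets. Of 12 G1/S transcripts 1 rose, the S phase cyclin cig2, which had 10.95 ± 0.21 in zfs1-deficient and 10.29 ± 0.07 in wild-type cultures (SD, n = 4 each; difference 0.66 ± 0.11, adjusted p = 0.0107). That is 8.33% of the list, against 5.78% of all probe sets. With the block 3 of the 12 were higher (25%, against 24.2%), cig2, rad21 and yox1, a repressor of G1/S transcription. yox1 differed by 0.54 ± 0.15 (adjusted p = 0.0682, 0.0145 with the block and 0.0404 without both replicate 4 cultures). The median of that list was 0.00, and the part of cell cycle stage in the values of ask1, ark1 and bub3 was not tested. Of 10 tested meiotic transcripts 1 rose, spo6, a regulator of meiotic division (1.59 ± 0.31, adjusted p = 0.0185), or 10% against 5.78% of all probe sets. With the block 3 were higher (30.0%, against 24.2%), the others being rec10, a meiotic chromosome axis gene (0.73 ± 0.21, adjusted p = 0.0785 and 0.0206 with the block), and mei4, a meiotic forkhead factor (0.74 ± 0.27, adjusted p = 0.163 and 0.0209 with the block). Without both replicate 4 cultures rec10 was also called (adjusted p = 0.0329). The median of the 10 was 0.21, with 6 positive and 4 negative (40.0% negative, against 52.6% of all probe sets). The lowest were mde2 (-1.15 ± 0.58, adjusted p = 0.301) and rec11 (-0.76 ± 0.30, adjusted p = 0.195), both partly at background and called in neither fit. The meiotic shugoshin gene sgo1 differed by -0.02 ± 0.12.

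The median width of the 95% intervals was 0.72 over the 43 genes, and for 37 of them the whole interval lay between -1 and 1, so differences of over 2-fold either way fell outside it. For 16 genes the interval lay between -0.5 and 0.5. These intervals are those without the block, and most SEs were smaller with it, those of dad1 and cnp3 among them.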

How the data were processed

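The deposited value table holds 5011 probe sets on 8 arrays. Per the labels, signals came from the Affymetrix GeneChip Operating Software; the deposited values were taken to be log10 of signal, from their range (array medians near 2.9, highest value 3.99), since no source used here states the base, scaling or probe summary. Another base would multiply all log2 differences by 1 factor, without changing limma's p-values. They were put on the log2 scale with no further normalisation. The 17 reporter controls served as background and were not tested, and 4969 probe sets with at least 2 values per strain were tested with limma 3.58.1 in R 4.3.3 (variance trend, 2-sided, threshold 0.05). The number of arrays limits the precision.

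Names came from a probe table, updated by gene identifier through the gene table for ASM294v3. A single symbol was given for 2916 probe sets, of which 2913 matched, and several for 20. For each gene the probe set with the highest mean was used. No source used here gives the build of the array design, so no coordinates are printed. In the list of related genes, hos2 was left out because the table gives that name to a histone deacetylase.

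Deviations of same-numbered arrays correlated above the 0.1 set as the rule for all 4 numbers, so the number was used for pairs and for the block. The main fit had no block and did not use the pairs, and counts of pairs are descriptions, not tests. The labels do not say what a number shares. Unlike numbers also passed 0.1: zfs1-deficient replicate 3 with wild-type replicates 1 (0.41) and 2 (0.12), and zfs1-deficient replicates 1 (0.25) and 2 (0.12) with wild-type replicate 3. Deviations within a strain cancel out, so a replicate 4 shift shared by both strains raises the correlations among replicates 1 to 3 together. The rule thus sets replicate 4 apart (0.70) but cannot show that replicates 1 to 3 are pairs. The code was tested on simulated data. The genes and lists were chosen with earlier results of these data known. Every gene is accounted for, and values on every array are given for those called with or without the block and for the gene of largest absolute difference in each role group; mis17, mis6, dad1, duo1 and mad2, neighbouring genes, and genes of the lists not called without the block, were added after their values were seen. Alternatives are given at the end.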

Additional observations from a re-analysis of the deposited data

Results flagged for a closer look

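In 14 of the 86 sets of 4 arrays (43 genes in each strain), the highest or lowest array lay apart from the other 3 by Dixon's test. The level was 95%, which chance alone passes in about 5% of sets. The share over all probe sets was not counted, so the number is not read as a trait of these genes. Over all probe sets, replicate 4 was the highest array of both strains for 25.3% and the lowest for 28.4%. Zfs1-deficient replicate 4 was the array apart for 7 of them. It was highest for cnp1 (8.20, next 7.49), sim3 (8.64, next 8.11), nuf2 (8.28, next 7.69), dad1 (10.45, next 9.37) and mad2 (9.48, next 8.39), and lowest for mis15 (7.82, next 8.52) and bub3 (8.20, next 9.05). Wild-type replicate 4 was lowest for mis15 (8.32, next 8.61) and highest for mis12 (9.61, next 8.81). Zfs1-deficient replicate 2 was lowest for mad1 (7.38, next 7.79). Wild-type replicate 2 was lowest for mad1 (7.58, next 7.97), cnp3 (3.68, next 8.01) and fta7 (7.49, next 7.76), and highest for mal2 (9.14, next 8.78).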

How the results depend on the processing

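With the replicate number as a block, higher and lower probe sets numbered 563 and 638, against 177 and 110 without it; array weights gave 761 and 756, and leaving out both replicate 4 cultures gave 332 and 277. With 1 array left out they ranged over 75 to 184 and 28 to 125. Of the 43 kinetochore and checkpoint genes, the block called 4 higher and 3 lower (16.3%, against 24.2% of all probe sets). Array weights called 4 and 8, against 761 and 756 of 4969 probe sets. Leaving out both replicate 4 cultures called 4 and 1, against 332 and 277 probe sets. The 8 lower with array weights were sim3, sim4, fta6, fta7, mis14, spc25, spc34 and mis3, and their number is not read as a result about these genes. With 1 array left out 1 to 4 were higher and 0 lower, and without fta5, an alternative chosen after seeing the data, 1 was higher. The 44 tested related genes gave 3 higher and 3 lower with the block (13.6%, against 24.2% of all probe sets). They gave 3 and 4 with array weights, and 0 to 1 lower with 1 array left out. The 14 mitotic and 12 G1/S transcripts gave 5 higher with the block, 5 with array weights and 2 without both replicate 4 cultures. The counts over all probe sets in the same settings are those above. The median of the kinetochore genes ranged over -0.11 to -0.03 with 1 array left out, and ask1 over 0.75 to 0.99. Values near 0 changed sign: mis18 was -0.022 after quantile normalisation and dad1 0.006 with centred medians; array weights gave mis12 0.022, mis13 0.11 and mad2 -0.059; leaving out both replicate 4 cultures gave mis12 0.087, mis13 0.013 and dad3 0.096. With 1 array left out, signs changed for mis6 (-0.24 to 0.15), mis12 (-0.13 to 0.19), nuf2 (-0.21 to 0.069), dad1 (-0.28 to 0.27), bir1 (-0.028 to 0.12), mis18 (-0.12 to 0.11), mal2 (-0.022 to 0.12), mis4 (-0.052 to 0.10), mis15 (-0.25 to 0.012), fta2 (-0.092 to 0.052), mad2 (-0.13 to 0.37), sos7 (-0.011 to 0.12), dad2 (-0.036 to 0.077) and dad3 (-0.20 to 0.045). The cause of these changes was not tested. zfs1 was lower under every alternative that kept it, and the dim filter removed it. That filter kept 15 of the 43 genes, fta5 and ask1 among them. No gene had another probe set to compare.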
